A study of Mus musculus with 2 samples.

Results

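The Hox genes of the 4 mammalian Hox clusters were examined in the newborn mouse spleen. Members were taken by name, as the Hoxa, Hoxb, Hoxc and Hoxd genes whose GENCODE symbols matched an Ensembl identifier in both gene tables, without regard to their values. The 38 genes described here are 10 of HoxA, 10 of HoxB, 9 of HoxC and 9 of HoxD, out of 43346 Ensembl genes and 21474 protein-coding genes in the tables. Whole spleens were taken at day 0 after birth from 2 B6NCrl pups of the same pregnancy, and 1 total RNA library was made from each. The libraries form a single group, P0 spleen (n = 2), with no contrast between conditions, and the labels name no genetic change or treatment. Replicate 1 is pup 2 and replicate 2 is pup 1, and both carry the same donor identifier in the labels, so any spread may be technical as well as biological.

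Hox genes encode homeodomain transcription factors that give cells their position along the head-to-tail axis. Within a cluster the genes are numbered from the 3′ end, and genes with the same number in different clusters form a paralog group of related sequence. Genes nearer the 3′ end are switched on earlier and closer to the head during development, and Polycomb and trithorax proteins keep the off and on states. In the trunk, the organs built from lateral plate mesoderm, which include the spleen, carry a Hox code in their mesenchyme, and blood stem and progenitor cells are known for HoxA and HoxB expression that is lost as they mature.

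The newborn spleen held Hox transcripts at low levels, mostly from the central part of the HoxA and HoxB clusters. The Hox genes summed to 14.82 TPM in replicate 1 and 16.66 TPM in replicate 2, where TPM is an abundance scaled for transcript length and library total. In estimated counts they held 820 of 33122187 in replicate 1 and 889 of 32162543 in replicate 2. That is 24.8 CPM in replicate 1 (95% Wilson interval 23.1 to 26.5) and 27.6 CPM in replicate 2 (25.9 to 29.5), where CPM scales a count to the library total and intervals throughout cover counting error only. The median Hox gene stood at 0.113 TPM, against 2.38 TPM for the median protein-coding gene. In a whole organ, fewer cells of a Hox-expressing type and less Hox RNA per cell cannot be told apart.

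Counts were present in both libraries for 24 of the 38 genes and in 1 library for 2 genes, and 12 genes had no count in either. Across protein-coding genes 19.8% had no count in either library. At 1 TPM in both libraries, 4 Hox genes were detected, against 31% of all Ensembl genes and 55.6% of protein-coding genes. These 4 were Hoxb7, Hoxb2, Hoxa7 and Hoxa5. Even the highest of them, Hoxb7, stood above only 48.8% of protein-coding genes.

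**Figure D1:**
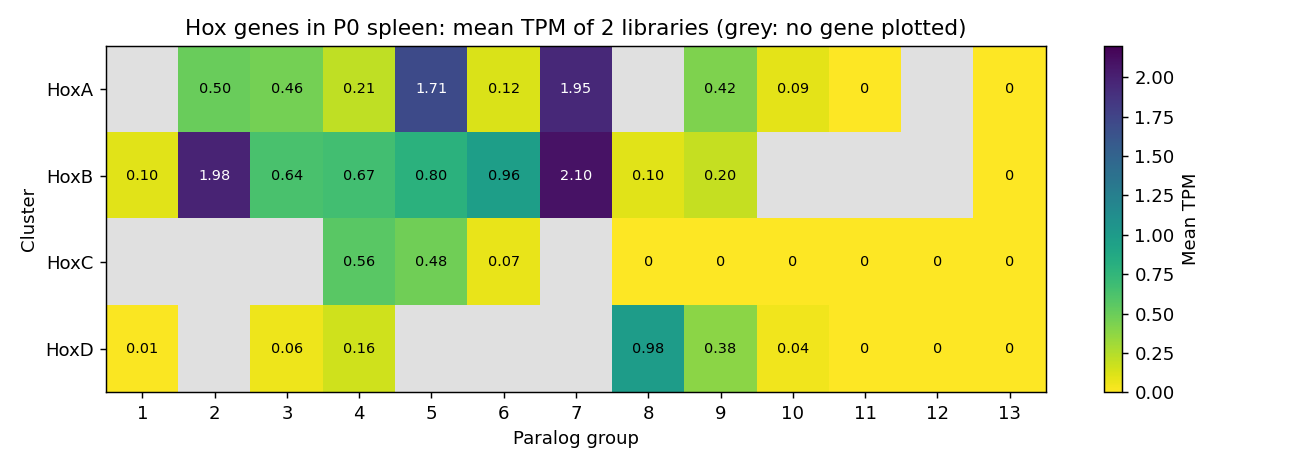
Mean TPM of the 38 Hox genes over the 2 libraries, with clusters down the page and paralog groups 1 to 13 across, colour and printed number both giving the mean TPM. The highest levels are Hoxb7, Hoxb2, Hoxa7 and Hoxa5, and every gene of groups 11 to 13 is at 0; grey squares hold no gene plotted.

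Most Hox TPM came from the middle of the numbering. Central genes, groups 4 to 8, held 68.9% ± 3.97 of Hox TPM from 15 genes (SD, n = 2). Anterior genes, groups 1 to 3, held 23.9% ± 2.78 from 7 genes, and posterior genes, groups 9 to 13, held 7.26% ± 1.18 from 16 genes. By the deposited posterior mean TPM, which gives genes without counts a level above 0, the posterior share was 11.5%. The order of these 3 shares was the same in both libraries, and their ranges did not overlap. Per gene the central and anterior parts were closer, with a median of 0.56 TPM for central, 0.46 TPM for anterior and 0 TPM for posterior genes. Among paralog groups, group 7 was highest, with 3.44 TPM in replicate 1 and 4.64 TPM in replicate 2 from Hoxa7 and Hoxb7. Group 5 had 2.44 TPM in replicate 1 and 3.53 TPM in replicate 2, and group 2 had 2.48 TPM in each. In replicate 1 the sums of groups 5 and 2 were thus level, and in replicate 2 that of group 5 was higher. Group 5 sums 3 genes and group 2 sums 2, and the median gene had 0.795 TPM in group 5 and 1.24 TPM in group 2. Groups 2 to 9 together held 98.4% ± 0.805, while the 12 genes of groups 10 to 13 summed to 0.19 TPM in replicate 1 and 0.08 TPM in replicate 2.

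HoxB and HoxA supplied most of the Hox RNA. The HoxB genes summed to 7.46 TPM in replicate 1 and 7.60 TPM in replicate 2, a share of 48.0% ± 3.34. HoxA genes summed to 4.47 TPM in replicate 1 and 6.46 TPM in replicate 2, a share of 34.5% ± 6.09. The HoxD genes held 10.4% ± 2.12 (1.77 TPM in replicate 1, 1.49 TPM in replicate 2), and the HoxC genes 7.11% ± 0.633 (1.12 TPM in replicate 1, 1.11 TPM in replicate 2). The cluster ranges of these shares did not overlap, so the order HoxB, HoxA, HoxD, HoxC held in each library.

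Hoxb7, a central gene on chromosome 11 (96286623 to 96290162, plus strand), had 2.02 TPM in replicate 1 and 2.17 TPM in replicate 2, from 76 counts in replicate 1 and 77 in replicate 2. Hoxb2, which patterns the hindbrain and lies at 96350525 to 96354012 on the same chromosome, had 2.08 TPM in replicate 1 and 1.88 TPM in replicate 2. Hoxa7, a central gene on chromosome 6 (52214491 to 52221854, minus strand), had 1.42 TPM in replicate 1 and 2.47 TPM in replicate 2. The wide spread of Hoxa7 covers the ranges of both HoxB genes, so their order cannot be read. Hoxa5, needed for the mesenchyme of the developing lung (chromosome 6, 52201754 to 52204587, minus strand), had 1.34 TPM in replicate 1 and 2.08 TPM in replicate 2. All 4 genes overlap with their neighbours in the order of means, and the next gene, Hoxd8, lies below the whole range of Hoxa5. Coordinates are on mm10 throughout.

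**Figure D2:**
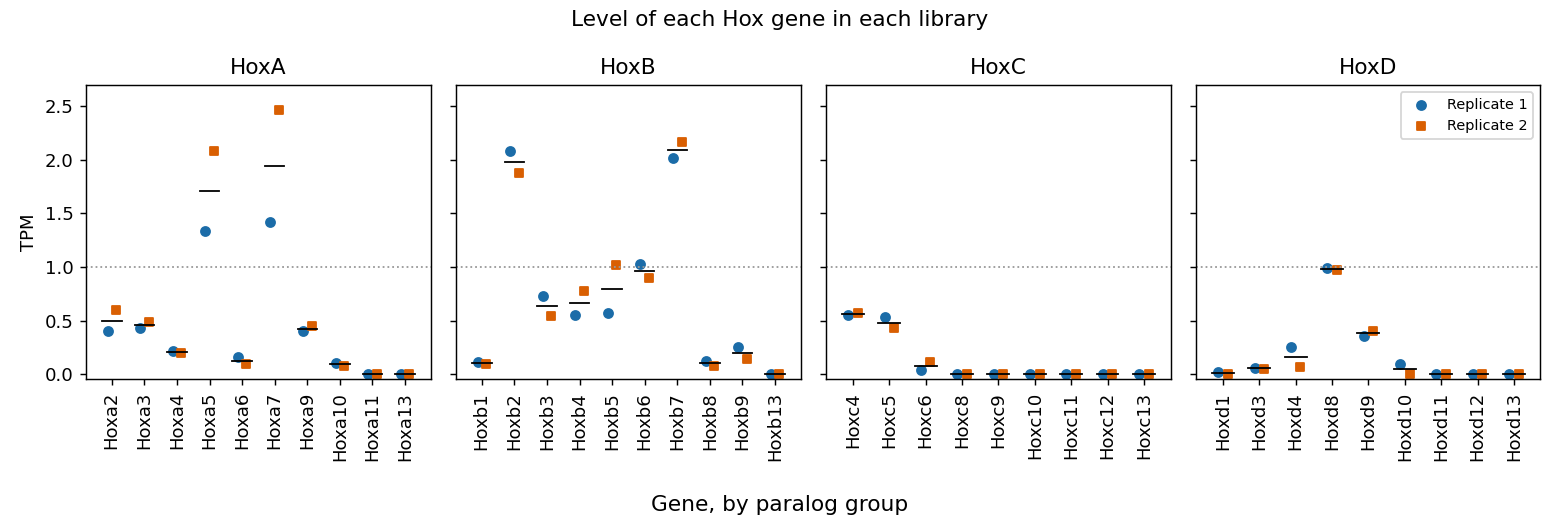
TPM of each Hox gene in replicate 1 (blue circles) and replicate 2 (orange squares), by cluster, with the mean of both as a black bar and 1 TPM as a dotted line. Hoxa5 and Hoxa7 show the widest gaps between libraries, with replicate 1 below replicate 2 in both, while Hoxb7 at 2.02 TPM in replicate 1 and 2.17 TPM in replicate 2 and Hoxd8 at 0.99 TPM in replicate 1 and 0.97 TPM in replicate 2 show narrow ones.

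A middle tier of 11 genes ran without a break in its ranges, with means between 0.98 TPM (Hoxd8) and 0.38 TPM (Hoxd9). Hoxd8 was the highest HoxD gene, at 0.99 TPM in replicate 1 and 0.97 TPM in replicate 2 from 79 counts in replicate 1 and 72 in replicate 2. Its paralogs were far lower, with Hoxb8 at 0.12 TPM in replicate 1 and 0.08 TPM in replicate 2 and Hoxc8 at 0 in both. Group 8 was thus carried by HoxD, while group 7 was carried by HoxA and HoxB. Hoxb6, a gene of the lateral plate mesoderm, had 1.03 TPM in replicate 1 and 0.90 TPM in replicate 2. Hoxb5, which in the adult mouse marks long-term blood stem cells, had 0.57 TPM in replicate 1 and 1.02 TPM in replicate 2. Hoxb6 and Hoxb5 each reached 1 TPM in a single library, and not in the same one.

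Other genes of the middle tier are known from blood or from the head and pharynx. Hoxb4, which expands blood stem cells when overexpressed, had 0.55 TPM in replicate 1 and 0.78 TPM in replicate 2. Hoxa9, a regulator of blood progenitors that is activated in leukaemias with Kmt2a fusions, had 0.40 TPM in replicate 1 and 0.45 TPM in replicate 2. Hoxb4 and Hoxa9 therefore lay below 1 TPM in each library, while Hoxb5, named above for blood stem cells, reached 1.02 TPM in replicate 2. Hoxb3, a hindbrain gene, had 0.73 TPM in replicate 1 and 0.54 TPM in replicate 2. Hoxa2, which patterns the second pharyngeal arch, had 0.40 TPM in replicate 1 and 0.60 TPM in replicate 2. Hoxa3, needed for the thymus and parathyroid, had 0.43 TPM in replicate 1 and 0.49 TPM in replicate 2. The range of Hoxa2 overlapped those of the other two, while Hoxb3 was above Hoxa3 in each library. Hoxc4 was the highest HoxC gene with 0.55 TPM in replicate 1 and 0.57 TPM in replicate 2, while Hoxc5 stood at 0.53 TPM in replicate 1 and 0.43 TPM in replicate 2. Hoxd9, which shapes the proximal limb together with Hoxa9, had 0.36 TPM in replicate 1 and 0.40 TPM in replicate 2.

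Below a second break in the ranges, 11 genes had counts at a mean of at most 0.21 TPM. Hoxa4 led them with 0.22 TPM in replicate 1 and 0.20 TPM in replicate 2, followed by Hoxb9 with 0.25 TPM in replicate 1 and 0.14 TPM in replicate 2. Hoxd4 had 0.25 TPM in replicate 1 and 0.07 TPM in replicate 2, resting on 10.48 counts in replicate 1 and 3 in replicate 2. The remaining 8, Hoxa6, Hoxb8, Hoxb1, Hoxa10, Hoxc6, Hoxd3, Hoxd10 and Hoxd1, had at most 8 counts in either library. Replicate 1 alone held the 5 counts of Hoxd10 and the single count of Hoxd1. Of all 37 steps between neighbours in the order of means, the break below Hoxa5 and the break below Hoxd9 were the only 2 at which the ranges of the libraries did not overlap.

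Transcripts were not detected at the 5′ end of any cluster. No count fell on any of the 9 genes of groups 11, 12 and 13. These include Hoxa11, which shapes the forearm and kidney, Hoxa13 and Hoxd13, which shape the digits, Hoxb13 of the tail and prostate, and Hoxc13 of hair and nails. The other genes at 0 were Hoxc8, Hoxc9 and Hoxc10. The last gene with counts in both libraries was Hoxa10 in HoxA, Hoxb9 in HoxB, Hoxc6 in HoxC and Hoxd9 in HoxD. A count of 0 allows up to 3 counts, or 0.0906 CPM in replicate 1 and 0.0933 CPM in replicate 2. Depending on gene length this limit ran from 0.0391 TPM for Hoxd12 in replicate 1 to 0.108 TPM for Hoxc12 in replicate 2, so lower levels were not detectable at this depth.

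**Figure D3:**
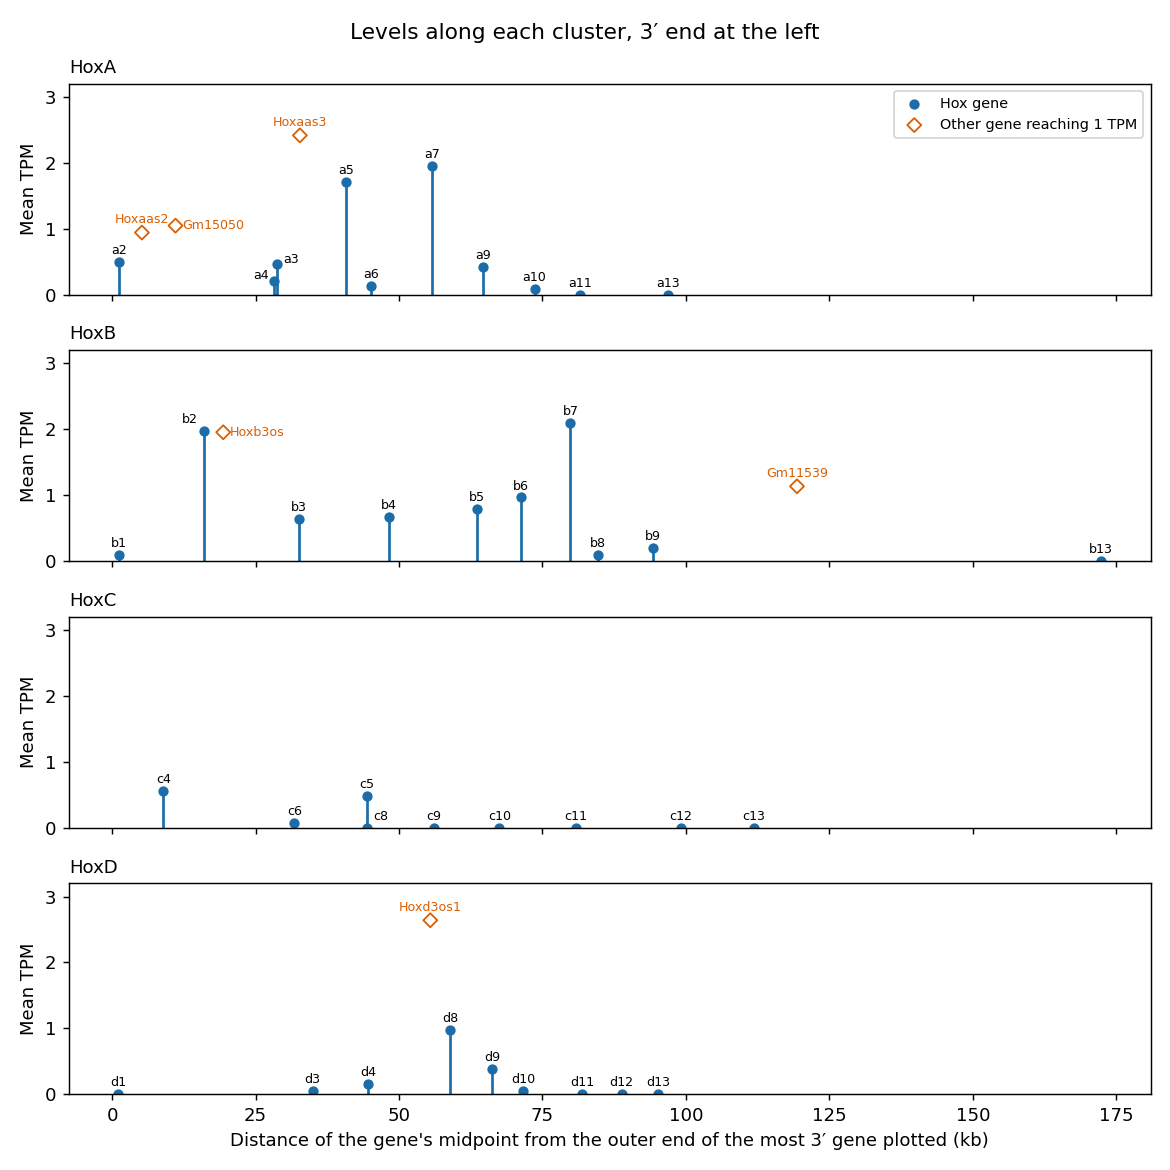
Mean TPM of each Hox gene (blue) against the distance in kb of its annotated midpoint from the outer end of the most 3′ gene plotted, with other genes in the cluster that reached 1 TPM in orange. In each of the 4 panels the blue points at the right, nearest the 5′ end, are at 0, and the level along the cluster is uneven; Hoxc5 sits out of number order because 1 of its annotated transcripts starts far upstream.

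Upstream sequence is shown for a pair of genes with counts and a pair without, as examples of how the DNA next to the start differs. They were picked after the levels were seen, from members whose window in RefSeq (GRCm38.p6) ends at the annotated start of a GENCODE transcript. Hoxa5 rested on 75 counts in replicate 1 and 110 in replicate 2, Hoxb4 on 43 in replicate 1 and 57 in replicate 2, while Hoxa13 and Hoxd12 had 0 in both. Each run is the 250 bases before the start, 5′ to 3′ on the gene's strand, and capitals mark CCAAT, or ATTGG where the box lies on the other strand. The windows are chr6:52204588-52204837 (minus), chr11:96318017-96318266 (plus), chr6:52260881-52261130 (minus) and chr2:74674763-74675012 (plus).
Hoxa5: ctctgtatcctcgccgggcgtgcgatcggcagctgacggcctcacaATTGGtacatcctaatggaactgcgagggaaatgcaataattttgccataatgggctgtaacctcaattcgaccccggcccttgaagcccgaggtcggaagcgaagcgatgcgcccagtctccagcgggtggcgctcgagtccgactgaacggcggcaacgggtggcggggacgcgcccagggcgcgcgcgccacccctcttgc
Hoxb4: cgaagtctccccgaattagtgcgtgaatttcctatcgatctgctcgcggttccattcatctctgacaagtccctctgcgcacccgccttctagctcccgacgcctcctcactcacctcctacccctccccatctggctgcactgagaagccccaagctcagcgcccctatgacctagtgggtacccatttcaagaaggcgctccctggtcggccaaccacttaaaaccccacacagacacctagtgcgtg
Hoxa13: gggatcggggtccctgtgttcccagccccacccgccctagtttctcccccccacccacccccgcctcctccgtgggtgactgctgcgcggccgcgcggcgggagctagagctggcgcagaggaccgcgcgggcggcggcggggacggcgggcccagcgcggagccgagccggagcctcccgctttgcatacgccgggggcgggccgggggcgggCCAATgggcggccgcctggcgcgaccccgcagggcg
Hoxd12: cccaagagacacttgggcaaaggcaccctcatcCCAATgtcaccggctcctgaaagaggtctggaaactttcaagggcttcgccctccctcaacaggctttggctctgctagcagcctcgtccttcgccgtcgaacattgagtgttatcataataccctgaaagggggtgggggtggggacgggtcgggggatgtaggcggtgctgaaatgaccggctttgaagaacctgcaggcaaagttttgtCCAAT
The Hoxa5 window holds 28 CpG dinucleotides and the Hoxa13 window 35, against 14 in Hoxb4 and 10 in Hoxd12. The most CpG of these 4 windows thus belonged to a gene without counts.

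The same letters were counted in all upstream windows. A window was found for 22 of the 38 genes, 24 windows in all. The motif CCAAT, searched as CCAAT and as ATTGG, occurred in 14 of the 24, or 58.3%, against 33.8% of 32851 windows of the same length. The median window held 12.5 CpG in Hox genes and 6 over all windows. Among the 9 windows of genes with a mean of at least 20 counts the number ran from 3 to 28 with a median of 8, and CCAAT occurred in 3. For the 6 windows of 5 genes at 0 the number ran from 2 to 35 with a median of 16.5, and CCAAT occurred in 3. Only 9 of the 15 genes with a mean of at least 20 counts had a window, and Hoxb7 and Hoxb2 had none. The windows of Hoxa3, Hoxa7 and Hoxd13 matched no GENCODE transcript start, and that of Hoxd8 precedes Hoxd8-203, which had 0 counts in both libraries. A window therefore need not lie before the transcript that held the counts. A match is a description of these letters and was set against no measurement of binding.

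By scaled counts, the ratios of Hox genes with enough counts stayed under 1.5-fold between the pups, some of them narrowly. Ratios of replicate 1 to replicate 2 were taken on TMM-scaled counts for the 15 genes with a mean of at least 20 counts, and the other 23 genes were too low. Their median log2 ratio was −0.05, against −0.01 for 15506 genes tested and −0.11 for the 2919 genes in the same range of counts. By scaled counts 0 of the 15 were 1.5-fold apart in either direction. Hoxa7 came closest, at 1.495-fold higher in replicate 2 with an interval up to 2.04, so larger differences are not excluded. By the ratio of deposited TPM, with 0.1 TPM added to each value, 3 of them (Hoxa7, Hoxb5 and Hoxa5) were at least 1.5-fold higher in replicate 2. Without that addition Hoxa2 also reaches 1.5-fold, with 0.40 TPM in replicate 1 and 0.60 TPM in replicate 2. Across all genes tested, by scaled counts, 2.54% were at least 1.5-fold higher in replicate 1 and 4.57% in replicate 2. In the same range of counts these shares were 7.74% and 15.2%. Summed over all Hox genes the ratio was 0.960 (95% Clopper-Pearson interval 0.872 to 1.06). With 1 library per pup there is no test of these differences.

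Hoxa7 and Hoxa5 were the only 2 genes whose counting interval did not include 1. The Hoxa7 ratio was 0.669 (0.490 to 0.907), from 72.08 counts in replicate 1 and 111.95 in replicate 2. For Hoxa5 it was 0.709 (0.522 to 0.960), from 75 counts in replicate 1 and 110 in replicate 2. Both were thus lower in replicate 1. Hoxb5 had a similar ratio of 0.682, with an interval of 0.440 to 1.04. In the other direction stood Hoxb6 at 1.38 (0.881 to 2.17), Hoxb2 at 1.25 (0.942 to 1.65) and Hoxd8 at 1.14 (0.819 to 1.59), all with intervals that include 1.

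**Figure D4:**
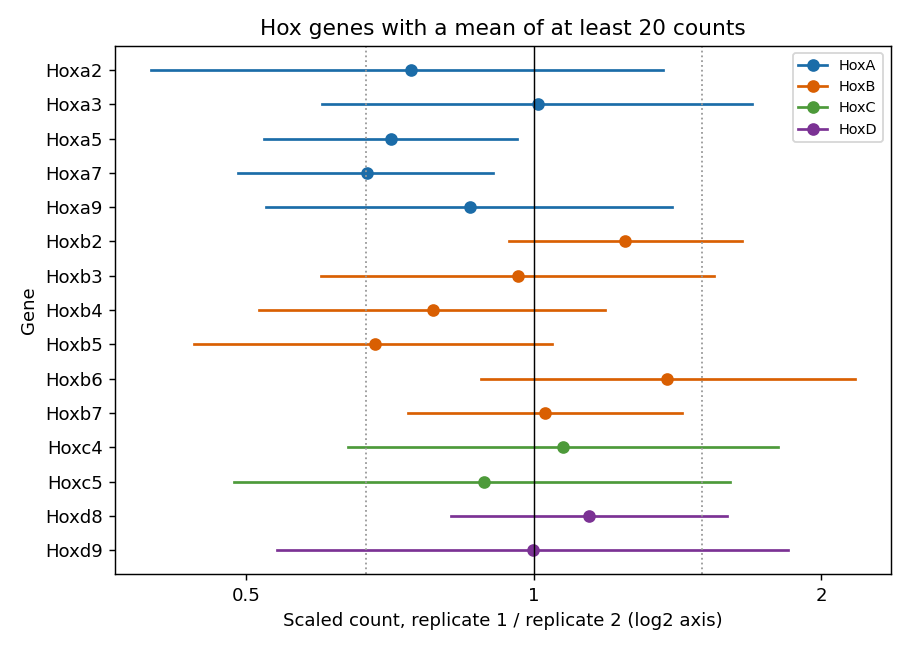
Ratio of the scaled count in replicate 1 to that in replicate 2 on a log2 axis for the 15 Hox genes with a mean of at least 20 counts, with exact 95% intervals that cover counting error only, the solid line at 1 and dotted lines at 1.5-fold either way. The intervals of Hoxa5 and Hoxa7 lie wholly left of 1, and those of the other 13 genes cross it.

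By cluster, the counts of HoxA were lower in replicate 1 than in replicate 2. HoxA summed to 252 counts in replicate 1 and 338 in replicate 2, a scaled ratio of 0.776 (0.656 to 0.916), and 4 of its 5 genes with a ratio were lower in replicate 1. Lower values in replicate 1 were found for 51.1% of all genes tested and 60% of those in the same range of counts. Hoxa5 and Hoxa7 held most of the HoxA counts in each library. Among the other HoxA genes with a ratio, Hoxa2 stood at 0.743, Hoxa9 at 0.858 and Hoxa3 at 1.01, all with intervals that include 1. HoxB summed to 388 counts in replicate 1 and 383 in replicate 2, a ratio of 1.05 (0.913 to 1.22). HoxC summed to 57 in replicate 1 and 64 in replicate 2 (0.927, 0.637 to 1.35), and HoxD to 123 in replicate 1 and 104 in replicate 2 (1.23, 0.940 to 1.61). Those 3 intervals include 1.

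Several marker lists differed between the same libraries. The 11 spleen mesenchyme markers, all at 1 TPM or more, summed to 950 TPM in replicate 1 and 1319 TPM in replicate 2, and 11 of 11 were lower in replicate 1, against 51.1% of all genes tested, with a median log2 ratio of −0.30. Among them Tlx1, required for the spleen to form, had 15.51 TPM in replicate 1 and 24.05 TPM in replicate 2, and Tcf21 had 113.87 TPM in replicate 1 and 135.45 TPM in replicate 2. Of 8 blood stem and progenitor markers 7 were at 1 TPM or more, and the list summed to 78.6 TPM in replicate 1 and 103 TPM in replicate 2 (median log2 ratio −0.25, 7 of 8 lower in replicate 1). The 6 erythroid markers were higher in replicate 1, at 2315 TPM against 2062 TPM in replicate 2 (median log2 ratio 0.34), and the 6 neutrophil markers were all lower there (median log2 ratio −0.38). The part of these shifts in the HoxA ratio was not tested.

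Tissue that could have come along with the spleen was read from its markers. Of 7 pancreas markers 5 reached 1 TPM, and the list summed to 882 TPM in replicate 1 and 317 TPM in replicate 2, while the pancreatic regulators Pdx1 and Ptf1a were under 0.2 TPM. Kidney markers reached 1 TPM in 0 of 7 cases, summing to 0.18 TPM in replicate 1 and 0.31 TPM in replicate 2 with Umod at 0, and gut epithelium in 1 of 6, with Cdx2 at 0. Reaching 1 TPM were 3 of 4 adrenal cortex, 2 of 7 neuron and ganglion, 3 of 5 skeletal muscle and 3 of 5 liver markers. The adrenal marker below 1 TPM, Cyp11b1, had 0 counts in replicate 1 and 1.23 in replicate 2. The skeletal muscle markers below 1 TPM, Myod1 and Myog, were under 0.2 TPM. Whether the markers that reached 1 TPM came from such tissue or from the spleen itself was not tested. All of the 5 mesothelium and 6 endothelium markers also reached 1 TPM, but these cell types belong to the spleen itself. Liver markers summed to 24.5 TPM in replicate 1 and 12.6 TPM in replicate 2. Their part in the Hox levels was not tested.

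Most Hox RNA was assigned to transcripts annotated as protein-coding. The 38 genes have 85 transcripts in the tables, 1 each for 15 genes and more for 23. By their GENCODE M21 types, protein-coding transcripts held 85.5% ± 1.60 of Hox TPM (SD, n = 2). A nonsense-mediated decay transcript, a class in which an early stop codon marks the RNA for breakdown, held 7.17% ± 1.72, retained introns 3.56% ± 0.888 and other processed transcripts 3.82% ± 2.44.

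The decay class came from a single transcript, which was the leading one of Hoxa7. Hoxa7-205 had 0.88 TPM in replicate 1 and 1.40 TPM in replicate 2, or 62.4% of the gene's TPM in replicate 1 and 56.7% in replicate 2. The protein-coding Hoxa7-201 had 0.23 TPM in replicate 1 and 0.37 TPM in replicate 2. Of the shorter protein-coding transcripts, Hoxa7-203 had 0.12 TPM in replicate 1 and 0.70 TPM in replicate 2, and Hoxa7-204 had 0.18 TPM in replicate 1 and 0 in replicate 2. The level of Hoxa7 protein-coding transcripts was therefore less than that of the gene as a whole. Hoxb2 was led by the protein-coding Hoxb2-201, at 1.77 TPM in replicate 1 and 1.63 TPM in replicate 2, and its retained-intron transcript Hoxb2-202 held 29.43 counts in replicate 1 and 22.36 in replicate 2. Hoxb5-202, also a retained intron, held 17.73 counts in replicate 1 and 10.09 in replicate 2. Hoxa5 and Hoxb7 had all counts on 1 protein-coding transcript each. By contrast all counts of Hoxa10, 5 in replicate 1 and 4 in replicate 2, were assigned to the processed transcript Hoxa10-203. The protein-coding Hoxa10-202, which overlaps it, was given 0 counts. The deposited posterior SD of that count was 1.26 in replicate 1 and 1.24 in replicate 2, so this split is uncertain.

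**Figure D5:**
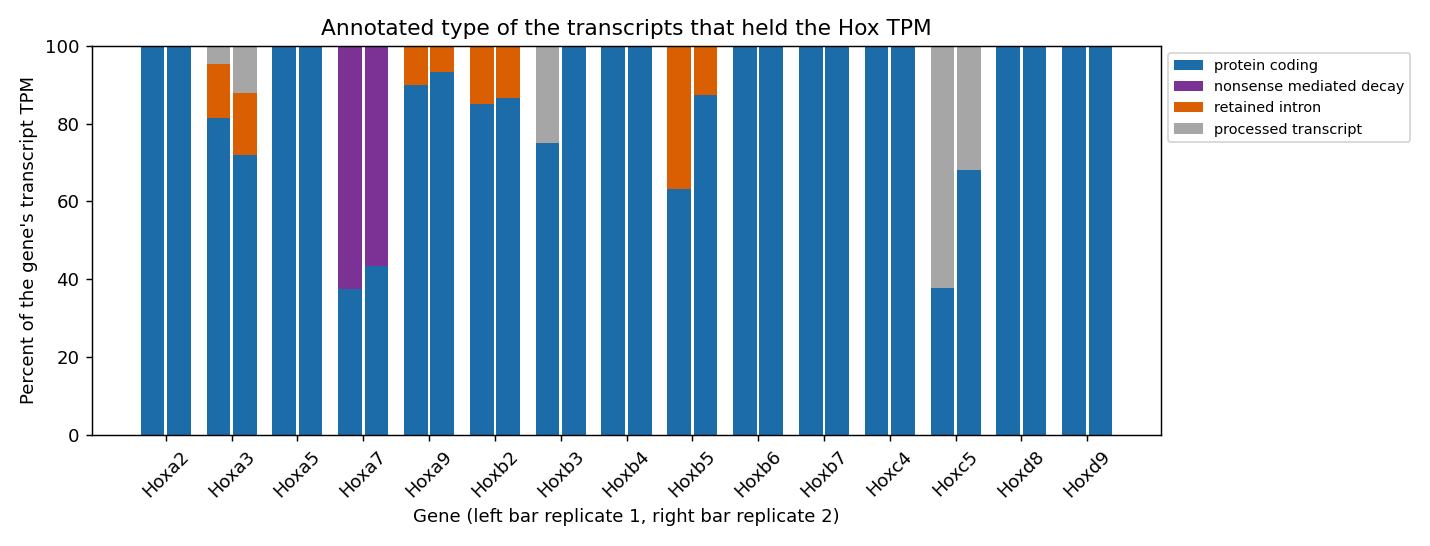
Percent of each gene's transcript TPM by annotated transcript type for the 15 Hox genes with a mean of at least 20 counts, with the left bar for replicate 1 and the right bar for replicate 2. Hoxa7 is the only gene with a nonsense-mediated decay part, at 62.4% in replicate 1 and 56.7% in replicate 2, and Hoxb3, Hoxb5 and Hoxc5 differ widely between the libraries. Those differences rest on few counts. In replicate 1 Hoxb3-204 held 2.00, Hoxc5-202 5.31 and Hoxb5-202 17.73, and in replicate 2 they held 0.00, 2.09 and 10.09.

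Exons of 15 of the 38 genes share bases with another annotated gene, 9 on the same strand and 9 on the opposite one, and no source used here says if strand was read. For Hoxa7 the shared part was 20.4% of exon bases, with Hoxaas3, for Hoxb2 27.3% and for Hoxb3 52.9%, both with Hoxb3os. Reads of these genes and their antisense partners may be divided wrongly. Hoxa5, Hoxb7, Hoxb4, Hoxb6, Hoxd8 and Hoxd9 share no exon base. Hoxd3 shares 62.4% of its exon bases on the same strand, with Hoxd4 and Gm28230, so the split between these genes is uncertain.

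A few antisense genes inside the clusters reached the levels of the highest Hox genes. Between the first and the last gene described in each of the 4 clusters lie 40 other annotated genes, 37 of them non-coding, and 27 of the non-coding ones had no count. A level of 1 TPM in either library was reached by 6. Hoxd3os1, antisense to Hoxd3, had 2.88 TPM in replicate 1 and 2.40 TPM in replicate 2, above every HoxD gene. Hoxaas3 had 2.05 TPM in replicate 1 and 2.78 TPM in replicate 2, and Hoxb3os 1.86 TPM in replicate 1 and 2.05 TPM in replicate 2. Hoxaas3 was thus above each HoxA gene in each library, and Hoxb3os below Hoxb7 in each, as the plot of levels along the clusters shows for the means. In counts the order differs, since TPM divides by a short length: Hoxaas3 rested on 33.39 counts in replicate 1 and 43.42 in replicate 2, fewer than Hoxa7 in each. Likewise Hoxd3os1 rested on 47.51 counts in replicate 1 and 44.47 in replicate 2, fewer than Hoxd8 in each. Hoxaas2 had 0.61 TPM in replicate 1 and 1.27 TPM in replicate 2, Gm15050 1.12 TPM in replicate 1 and 0.97 TPM in replicate 2, and the pseudogene Gm11539, which lies between Hoxb9 and Hoxb13, 1.45 TPM in replicate 1 and 0.82 TPM in replicate 2.

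Some known long non-coding RNAs of the clusters had no count, namely Hotair in HoxC, Haglr in HoxD and Hoxa11os in HoxA. Hairpins of all 6 annotated microRNAs in the clusters, of the Mir10, Mir196 and Mir615 families, were also at 0, and RNA over 200 nt was selected for the libraries, so these short RNAs were not measured. Hotairm1, just beyond the 3′ side of Hoxa2 at chromosome 6, 52156902 to 52162119, was picked after its values were seen. It had 5.94 TPM in replicate 1 and 8.05 TPM in replicate 2, from 45 counts in replicate 1 and 61 in replicate 2. In TPM it was above every Hox gene described here, but in counts below Hoxa5, Hoxa7, Hoxb2, Hoxb7 and Hoxd8 in each library.

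Flanking protein-coding genes ranged from no count to levels far above the Hox genes. On the 5′ side, Evx1 beside HoxA and Evx2 beside HoxD, which are homeobox genes of the caudal embryo, had no count. Ttll6 beside Hoxb13 had 0 TPM in replicate 1 and 0.02 TPM in replicate 2, while Calcoco1 on the 5′ side of HoxC had 15.52 TPM in replicate 1 and 20.20 TPM in replicate 2. On the 3′ side, the nearest other protein-coding genes were Skap2 at HoxA (29.05 TPM in replicate 1, 37.13 TPM in replicate 2), Skap1 at HoxB (1.38 TPM in replicate 1 and 2.89 TPM in replicate 2), Smug1 at HoxC (2.48 TPM in replicate 1 and 2.78 TPM in replicate 2) and Mtx2 at HoxD (61.46 TPM in replicate 1 and 60.55 TPM in replicate 2). Their distance from the nearest gene described ran from 8.75 kb for Evx2 to 198.9 kb for Calcoco1.

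Most partners of Hox proteins were higher than the Hox genes. TALE proteins bind DNA together with Hox proteins, and all 9 of the Pbx, Meis and Pknox genes reached 1 TPM in both libraries, with a median of 10.04 TPM against 0.113 TPM for the Hox genes. The lowest, Pknox2, had 1.51 TPM in replicate 1 and 1.86 TPM in replicate 2, within the levels of the highest Hox genes. Meis1 had 19.87 TPM in replicate 1 and 26.00 TPM in replicate 2, Pbx3 16.16 TPM in replicate 1 and 16.61 TPM in replicate 2, and Pknox1 12.64 TPM in replicate 1 and 13.53 TPM in replicate 2. The list summed to 82.7 TPM in replicate 1 and 103 TPM in replicate 2, with 7 of 9 genes lower in replicate 1, against 51.1% of all genes tested, and a median log2 ratio of −0.24.

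Chromatin regulators of the clusters were all present. All 9 trithorax-type genes reached 1 TPM in both libraries, led by Psip1 at 69.84 TPM in replicate 1 and 62.98 TPM in replicate 2, Ash2l at 31.93 TPM in replicate 1 and 34.47 TPM in replicate 2, and Wdr5 at 26.45 TPM in replicate 1 and 26.40 TPM in replicate 2. All 16 Polycomb genes did so as well, led by the methyltransferase Ezh2 at 78.05 TPM in replicate 1 and 72.35 TPM in replicate 2, with its partners Suz12 at 30.11 TPM in replicate 1 and 29.18 TPM in replicate 2 and Eed at 27.99 TPM in replicate 1 and 26.87 TPM in replicate 2. Geminin (Gmnn), known to bind both Hox and Polycomb proteins, had 164.11 TPM in replicate 1 and 134.25 TPM in replicate 2.

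Genes that set Hox expression in the embryo were present in part, 6 of 13 at 1 TPM in both libraries. Cdx2 and Cdx4, which switch on trunk Hox genes, had no count, and Cdx1 had 0 counts in replicate 1 and 1 in replicate 2. The retinoic acid receptor Rara had 11.36 TPM in replicate 1 and 16.28 TPM in replicate 2. Aldh1a2, which makes retinoic acid, had 10.20 TPM in replicate 1 and 13.79 TPM in replicate 2. All 8 genes of the list with a ratio were lower in replicate 1, against 51.1% of all genes tested, with a median log2 ratio of −0.38.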

How the data were processed

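Total RNA of 2 newborn mouse spleens was sequenced, 1 library each, from 10 ng of RNA over 200 nt, per the labels. The authors' gene and transcript tables are on mm10 (per the labels) and GENCODE M4 (per the deposited text listing). Expected counts, as deposited, are estimated and can be fractional where a read fits more than 1 feature. TPM and posterior mean TPM, also deposited by the authors, are levels per length. The aligner, quantifier versions and strand setting are left out as not given in the sources used here. No molecular identifiers were counted, so reads may repeat 1 molecule.

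Names, types and coordinates came from GENCODE M21 (GRCm38), which matched 42462 of 43346 Ensembl genes. Under R 4.3.3, edgeR 4.0.16 gave TMM factors for the rounded counts, and log2 CPM was computed with a prior count of 2 for genes with a mean of at least 20 counts. Only the ratio step was tested on simulated data, in which the changed genes had higher mean counts than most Hox genes. Gene ratios carry exact 95% Clopper-Pearson intervals and shares Wilson ones. DESeq2 1.42.0 gave an alternative scaling. Other steps used scipy 1.17.1, pandas 2.3.3, numpy 2.4.6, matplotlib 3.10.9 and Python 3.11.15.

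All members were counted. Values of both libraries were printed for members at a mean of 1 TPM, the highest and lowest of each cluster and the 3 largest ratios each way, with further members added for their known roles. For the others, the rule took the leading transcripts, genes inside the clusters at 1 TPM in either library, the nearest protein-coding gene on each side that is not a Hox gene, and the 3 highest genes of each pathway list. Tlx1 and Tcf21 were named after their values were seen. Members and lists were chosen with earlier results of these data known. With 1 group and 2 libraries, no test between conditions was made. The rules also take 1 further Hox gene and 1 gene of a pathway list, which are not reported here.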

Additional observations from a re-analysis of the deposited data

How the results depend on the processing

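Depth limits most statements, since 23 of 38 Hox genes had a mean under 20 counts and 12 had none. The 4 genes detected at 1 TPM in both libraries became 10 at 0.5 TPM, 1 at 2 TPM and 15 at a minimum of 20 counts. By posterior mean TPM, which gives genes without counts a level above 0, the share of HoxB was 44.0%, of HoxC 8.43%, of central genes 64.6%, of posterior genes 11.5% and of protein-coding transcripts 82.0%, 26 of 38 gene levels moved by more than 1 SD, and 35 of 38 were higher. By estimated counts, which are not per length, HoxD held 13.4% and posterior genes 9.45%. The median log2 ratio of replicate 1 to replicate 2 changed sign to 0.30 at a mean of 100 counts, where 1 gene is left, and to 0.07 without a filter, over 26 genes. Genes at least 1.5-fold higher in replicate 1 numbered 5 without a filter. Those at least 1.5-fold higher in replicate 2 numbered 2 by total counts, 3 by the ratio of deposited TPM with 0.1 added, and 1 without a filter. The share of all genes past 1.5-fold was not counted under these settings, so these numbers have no background beside them. Without a filter a ratio can rest on few counts, such as 5 in replicate 1 and 0 in replicate 2 for Hoxd10. The median log2 ratio over all genes was −0.11 by total counts and −0.14 by TPM. From 1 library at a time, 5 genes were detected in each, the HoxA share ran from 30.2 to 38.8%, HoxB 45.6 to 50.3%, HoxC 6.66 to 7.56%, HoxD 8.94 to 11.9%, anterior genes 21.9 to 25.8%, central genes 66.1 to 71.7%, posterior genes 6.42 to 8.10% and protein-coding transcripts 84.3 to 86.6%. No paired analysis was possible because there is 1 group.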
